A study of Mus musculus with 16 samples.

Results

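Genes of blood stem and progenitor cells were followed in sorted mouse thymocytes, namely the surface proteins Kit, Flt3, Cd34 and Cd93, and the transcription factors Spi1, Erg, Meis1, Hoxa9, Mef2c and Bcl11a. They were chosen by gene symbol, and all 10 were found among the 22114 protein-coding genes of both deposited count tables. The cells were DN3 thymocytes, the immature stage that carries CD25 but neither CD4, CD8 nor CD44. The mice are labelled C57BL/6, and the paper states that its lines were backcrossed onto C57BL/6J. In the first experiment, the DN3 cells came from mice with a doxycycline-inducible H2B-GFP allele and the Lmo2 transgene (Lmo2Tg), in which the CD2 promoter drives Lmo2 in T cells. After 6 weeks of doxycycline and 2 weeks without it, cells that kept the label (GFPhi, 3 libraries) were separated from cells that had diluted it (GFPlo, 3 libraries), and both populations carried the transgene. In the second experiment, total DN3 cells were taken from wild-type mice (3 libraries), mice without p21 (p21-/-, 2 libraries), Lmo2Tg mice (2 libraries) and Lmo2Tg;p21-/- mice (2 libraries). The GFP-sorted mice came from 3 cohorts. A supplementary legend gives their age as 2 months, while the methods give 6 weeks for the mice of the RNA pools. The mice of the 4 genotypes were 6 weeks old. RNA was prepared from pools of 3 to 5 mice, but which pool gave which library is not given in the sources used here. Neither experiment held a wild-type population sorted by GFP.

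During normal development, progenitors that reach the thymus from the bone marrow still use many genes of the stem cell program. These genes are turned down in steps as the cells pass through the DN1 and DN2 stages, and by DN3 the cells have committed to the T-cell lineage and rearrange their T-cell receptor β genes. Kit is the receptor for stem cell factor and Flt3 the receptor for Flt3 ligand, both tyrosine kinases that keep progenitors alive. Cd34 is a sialomucin and Cd93 a lectin-like transmembrane receptor, both used to recognise progenitors. Spi1 encodes PU.1, the ETS factor of myeloid and early lymphoid cells, and Erg is a further ETS factor needed by stem cells. Meis1 and Hoxa9 are homeodomain partners, Mef2c is a MADS-box factor of lymphoid progenitors, and Bcl11a is a zinc-finger repressor needed for lymphoid progenitors and B cells. Lmo2 is a LIM-only adaptor that carries no DNA-binding domain and joins Tal1 or Lyl1, E proteins and GATA factors into a complex on DNA.

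Levels are counts per 1000000 reads (CPM) after TMM scaling to a common library composition. Total counts ranged from 13864936 to 16837667 per library for the genotypes and from 26861394 to 31106213 for GFPhi and GFPlo. A floor of 3 counts therefore corresponded to between 0.176 and 0.222 CPM in the first set and between 0.0966 and 0.112 CPM in the second, for counting error only. Lmo2 itself was between 0.0636 and 0.306 CPM in the wild-type and p21-/- libraries, 41.4 and 100 CPM in the Lmo2Tg libraries, and 85.4 and 107 CPM in the Lmo2Tg;p21-/- libraries, which matched the labels. Cdkn1a, which encodes p21, was 36.5, 37.5 and 49.0 CPM in wild-type, 14.3 and 17.7 CPM in p21-/-, 32.8 and 26.3 CPM in Lmo2Tg, and 4.35 and 3.50 CPM in Lmo2Tg;p21-/- cells. Its transcript was lower but not gone in the p21-/- libraries. Il2ra, which encodes CD25, lay between 1411 and 1689 CPM in all 9 genotype libraries, and Cd4 stayed at or under 7.39 CPM. Transcripts of the other excluded surface proteins were low but present. Cd8a was 7.63 to 9.80 CPM in wild-type and 34.5 and 32.9 CPM in Lmo2Tg cells, Cd8b1 12.5 to 14.3 against 19.5 and 31.05 CPM, and Cd44 7.50 to 9.99 against 17.2 and 12.2 CPM. In the GFP libraries Cd8a reached 77.6 CPM and Cd44 31.1 CPM.

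In wild-type DN3 cells the 10 genes were not uniformly silent. Divided by exon length, so that genes can be set against each other, the mean level was 14.3 CPM per kb for Erg, 12.8 for Cd93 and 8.36 for Kit. These values exceeded those of 82.7%, 80.8% and 74.1% of the 21721 genes with a known exon length. Bcl11a followed at 1.34 CPM per kb, Spi1 at 1.07, Mef2c at 0.415, Cd34 at 0.328 and Hoxa9 at 0.269. Flt3, at 0.0369 CPM per kb, and Meis1, at 0.0156 CPM per kb, came last, with at most 6 and 3 counts in a wild-type library. Among neighbours in this order, the wild-type libraries overlapped in CPM per kb for Erg and Cd93, Bcl11a and Spi1, Mef2c and Cd34, Cd34 and Hoxa9, and Flt3 and Meis1, and no test was made between genes. Bcl11a, Spi1, Mef2c, Cd34 and Hoxa9 exceeded between 49.5% and 56.5% of genes, Flt3 41.1% and Meis1 37.5%. No level was set below which a gene would count as silenced. Flt3 and Meis1 stayed near the floor, whereas Kit, Cd93 and Erg were well expressed in normal DN3 cells, against the name of stem and progenitor genes silenced there.

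**Figure D1:**
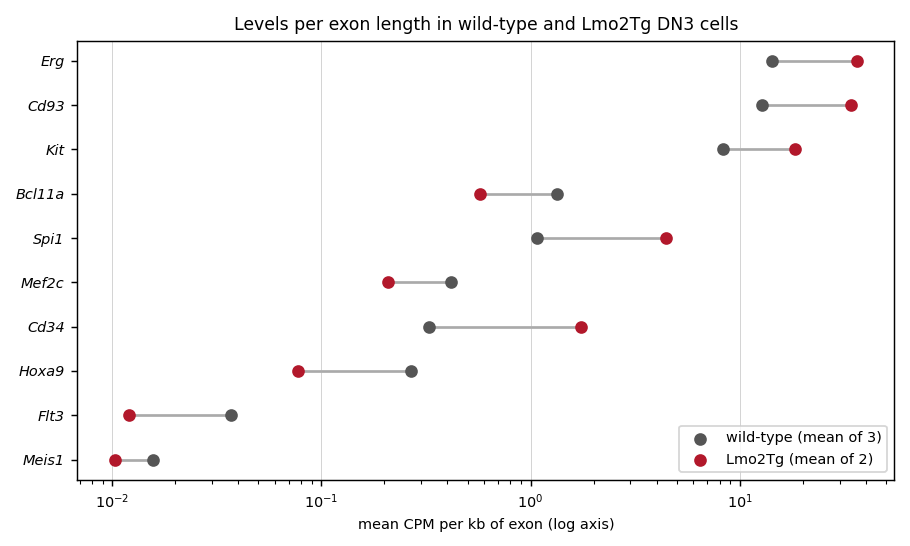
Mean level of each gene in CPM per kb of exon (log axis) in wild-type (grey, mean of 3 libraries) and Lmo2Tg (red, mean of 2 libraries) DN3 cells, ordered by the wild-type level. Kit, Cd93, Erg, Spi1 and Cd34 lay to the right of wild-type in Lmo2Tg cells, and Mef2c, Bcl11a and Hoxa9 to the left.

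Positions are those of the mouse genome build GRCm38 (GENCODE M21). Kit (ENSMUSG00000005672) is at chr5:75574916-75656722 on the plus strand and Flt3 (ENSMUSG00000042817) at chr5:147330741-147400489 on the minus strand. Cd34 (ENSMUSG00000016494) is at chr1:194938819-194961279 on the plus strand and Cd93 (ENSMUSG00000027435) at chr2:148436640-148443563 on the minus strand. Spi1 (ENSMUSG00000002111) is at chr2:91082390-91115756 on the plus strand, and Erg (ENSMUSG00000040732) at chr16:95359169-95586593 on the minus strand. Meis1 (ENSMUSG00000020160) is at chr11:18879817-19018985 on the minus strand and Bcl11a (ENSMUSG00000000861) at chr11:24078056-24174123 on the plus strand. Hoxa9 (ENSMUSG00000038227) is at chr6:52223100-52231089 on the minus strand, and Mef2c (ENSMUSG00000005583) at chr13:83504034-83667080 on the plus strand. Exons of Hoxa9 overlap Mir196b and exons of Meis1 overlap Gm37818 on the same strand. Exons of Cd34, Bcl11a and Meis1 overlap the antisense genes Gm16897, 4930538E20Rik and Gm16140. The names of the deposited tables carry the word reverse for GFPhi and GFPlo and the word no for the genotypes, which may be the strand settings of the counting, but no source used here states this, so the counts of these genes may include reads of their neighbours.

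The bases upstream of the RefSeq start site are shown for 3 genes that were higher and 1 gene that was lower with the transgene, as examples of the opposite directions in which these genes moved. RefSeq sequence (GRCm38.p6) was held for 8 of the 10 genes. The stretch ends 1 base before the GENCODE gene, reads 5′ to 3′ on the strand of the gene, and uses the start site that lies farthest upstream in the table. Capitals mark matches, on either strand, to CANNTG (an E-box, bound by E proteins and Tal1 or Lyl1), GATAA (GATA factors), TGTGGT (RUNX factors) or GAGGAA (PU.1 and other ETS factors).
Kit, chr5:75574737-75574915, plus strand: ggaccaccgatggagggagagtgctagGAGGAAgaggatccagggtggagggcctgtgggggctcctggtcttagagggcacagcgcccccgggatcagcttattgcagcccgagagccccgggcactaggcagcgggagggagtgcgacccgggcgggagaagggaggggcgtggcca
Cd34, chr1:194938571-194938818, plus strand: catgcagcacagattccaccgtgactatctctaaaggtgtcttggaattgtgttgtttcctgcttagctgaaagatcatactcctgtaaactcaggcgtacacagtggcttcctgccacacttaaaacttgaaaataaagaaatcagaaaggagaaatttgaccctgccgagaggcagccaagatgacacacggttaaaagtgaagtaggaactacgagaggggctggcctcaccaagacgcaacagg
Erg, chr16:95586594-95586843, minus strand: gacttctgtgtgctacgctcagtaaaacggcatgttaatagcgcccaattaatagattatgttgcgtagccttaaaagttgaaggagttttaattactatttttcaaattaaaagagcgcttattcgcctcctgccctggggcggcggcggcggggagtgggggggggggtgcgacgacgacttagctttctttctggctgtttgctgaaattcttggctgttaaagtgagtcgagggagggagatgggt
Mef2c, chr13:83503784-83504033, plus strand: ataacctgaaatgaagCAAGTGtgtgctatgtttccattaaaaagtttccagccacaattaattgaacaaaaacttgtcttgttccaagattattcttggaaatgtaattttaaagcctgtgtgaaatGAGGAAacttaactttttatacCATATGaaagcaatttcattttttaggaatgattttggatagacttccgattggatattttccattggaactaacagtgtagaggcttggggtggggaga
The Kit stretch held 1 match, to GAGGAA, and the Mef2c stretch held 2 E-boxes and 1 GAGGAA, while the Cd34 and Erg stretches held none of the 4 motifs. Of all 32851 promoters in the table, 66.2% held an E-box, 22.6% GATAA, 14.05% TGTGGT and 23.3% GAGGAA within 250 bases upstream of the start. These matches are a description of the letters in this window.

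The first question was what the Lmo2 transgene did to these genes in total DN3 cells. Of the 8 genes that could be tested, 5 rose in Lmo2Tg against wild-type cells and 3 fell. Cd34, Spi1, Cd93, Erg and Kit were between 2.21-fold and 5.32-fold higher, whereas Hoxa9, Bcl11a and Mef2c fell to between 0.288 and 0.501 of the wild-type level. Calls were made at an adjusted p under 0.05 in edgeR's quasi-likelihood test over all 11840 genes tested, of which 19.7% were higher and 16.9% lower. The median log2 fold change of the 8 genes was 1.24, against -0.01 over all genes tested. With a fold change above 2 required as well, 7 of the 8 genes were called, all but Mef2c, against 12.0% of all genes. Flt3 and Meis1 did not pass the filter on low counts and were not tested. Hoxa9 passed it only through libraries without the transgene, the groups where it was high. In sorted bulk cells, more cells of a type and more RNA per cell cannot be told apart, so none of these values says how many cells carried a transcript.

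Kit was 84.8, 75.6 and 63.0 CPM in the wild-type libraries, a mean of 74.4 ± 10.97 (SD, n = 3), and 199 and 129 CPM in the Lmo2Tg libraries. The groups did not overlap, and the Lmo2Tg libraries differed from each other by more than the wild-type libraries did. The log2 fold change was 1.14 ± 0.18 (SE), with an adjusted p of 0.000701 in edgeR's test. Cd93 was 91.4, 86.5 and 78.6 CPM in wild-type and 280 and 175 CPM in Lmo2Tg cells. As for Kit, the higher value was in the Lmo2Tg library of column number 2, and both lay above every wild-type library. The log2 fold change of Cd93 was 1.41 ± 0.16 (adjusted p = 7.92e-05, edgeR).

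Cd34 started much lower, at 3.37, 2.42 and 1.39 CPM in wild-type, and reached 11.4 and 14.1 CPM in Lmo2Tg cells. This was the steepest rise among the 8 genes tested, at 2.41 ± 0.29 on the log2 scale (adjusted p = 0.000132, edgeR). Even so, Cd34 in Lmo2Tg cells, at 1.75 CPM per kb, remained far below Kit at 18.4 CPM per kb and Cd93 at 34.1 CPM per kb. Flt3 had no such rise. It had 0, 6 and 5 counts in the wild-type libraries and 2 and 0 counts in the Lmo2Tg libraries, so that all values lay at or near the floor and a difference was not detectable at this depth.

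Among the transcription factors, Spi1 was 3.13, 3.56 and 2.00 CPM in wild-type and 11.02 and 12.9 CPM in Lmo2Tg cells. The groups were far apart, and the log2 fold change was 2.05 ± 0.23 (adjusted p = 6.63e-05, edgeR). Erg was 51.8, 53.1 and 44.0 CPM in wild-type and 132 and 120 CPM in Lmo2Tg cells. The Erg libraries of each group lay close together, and the log2 fold change was 1.35 ± 0.11 (adjusted p = 6.13e-06, edgeR). Erg therefore became, with Cd93, one of the better expressed genes of the cells, above 93.7% of genes by CPM per kb.

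Bcl11a, Mef2c and Hoxa9 changed in the opposite direction. Bcl11a was 17.9, 18.1 and 17 CPM in wild-type and 7.40 and 7.66 CPM in Lmo2Tg cells, with little spread in either group. Its log2 fold change was -1.23 ± 0.13 (adjusted p = 4.4e-05, edgeR). Mef2c was 7.17, 6.36 and 6.05 CPM in wild-type and 3.03 and 3.49 CPM in Lmo2Tg cells, or -0.998 ± 0.207 on the log2 scale (adjusted p = 0.00364, edgeR). Hoxa9 had 21, 20 and 32 counts in the wild-type libraries and 7 and 5 counts in the Lmo2Tg libraries, or 1.29, 1.27 and 1.94 CPM against 0.518 and 0.342 CPM. The groups did not overlap, and the log2 fold change was -1.79 ± 0.46 (adjusted p = 0.0117, edgeR). The Hoxa9 call rested on the Lmo2Tg library of column number 3, since without it, with 1 library left in the group, the log2 fold change was -1.52 and the adjusted p 0.0836. Meis1, the partner of Hoxa9, had at most 3 counts in any wild-type or Lmo2Tg library.

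**Figure D2:**
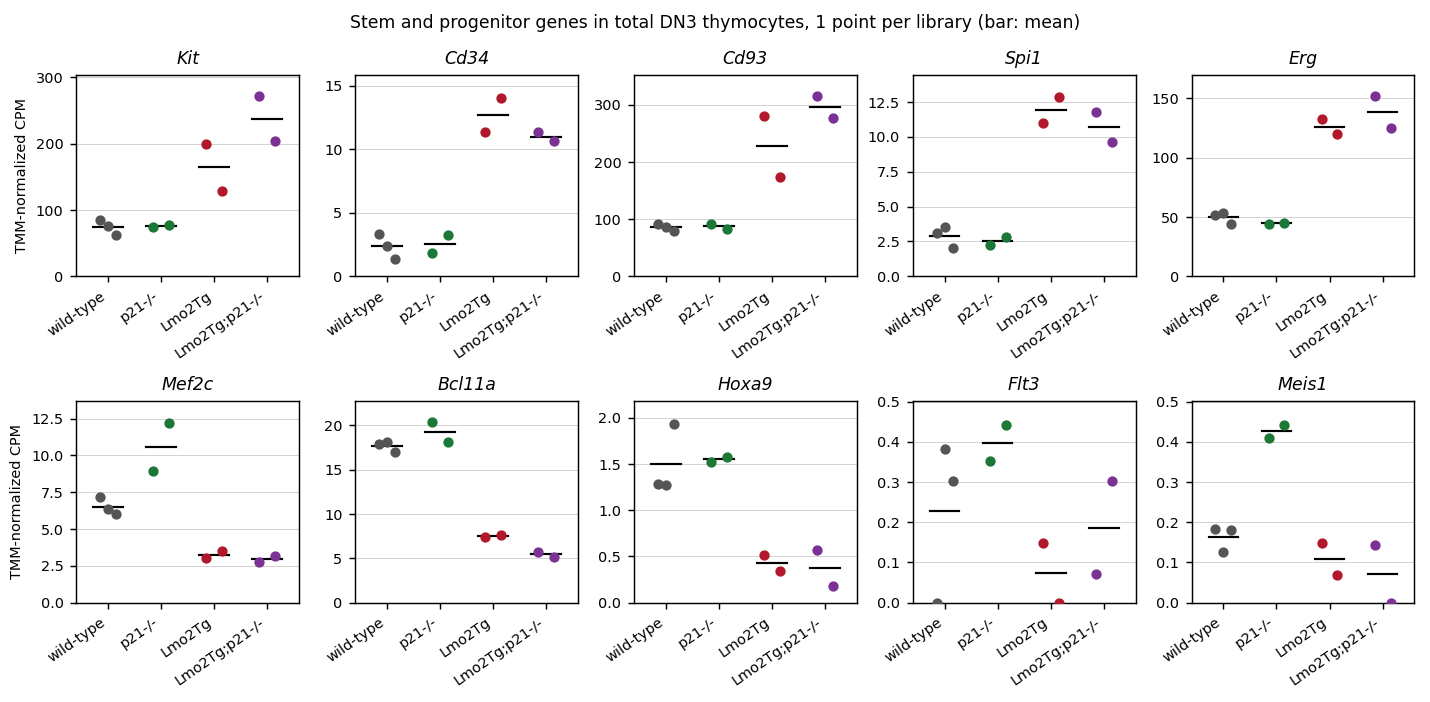
Level of each of the 10 genes in TMM-normalized CPM (linear axes starting at 0, with a scale of their own) in wild-type, p21-/-, Lmo2Tg and Lmo2Tg;p21-/- DN3 cells, with 1 point per library and a bar at the group mean. Both groups with the transgene lay above both groups without it for Kit, Cd34, Cd93, Spi1 and Erg, and below them for Mef2c, Bcl11a and Hoxa9.

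The transgene was also compared on the p21-/- background, in libraries that the first comparison did not use. In Lmo2Tg;p21-/- against p21-/- cells, the same 5 genes rose and the same 3 fell, against 16.3% of 11840 genes higher and 14.4% lower. Kit was 73.9 and 77.0 CPM in p21-/- and 271 and 204 CPM in Lmo2Tg;p21-/- cells, or 1.66 ± 0.20 on the log2 scale (adjusted p = 0.000148, edgeR). Cd93 went from 91.3 and 83.6 CPM to 315 and 277 CPM, and Erg from 44.3 and 45.2 CPM to 152 and 125 CPM. The log2 fold changes of these receptors and of Erg were 1.76 ± 0.18 for Cd93 and 1.63 ± 0.12 for Erg. Cd34 was 1.88 and 3.29 CPM in p21-/- and 11.4 and 10.6 CPM in Lmo2Tg;p21-/- cells, and its log2 fold change was 2.09 ± 0.33. Spi1 was 2.23 and 2.85 CPM against 11.8 and 9.66 CPM, with a log2 fold change of 2.08 ± 0.26. The adjusted p of these 4 genes was at most 0.000857 in edgeR's test.

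Bcl11a was 20.3 and 18.2 CPM in p21-/- and 5.71 and 5.19 CPM in Lmo2Tg;p21-/- cells. Mef2c was 8.97 and 12.2 CPM against 2.78 and 3.20 CPM. For both genes all libraries with the transgene lay well below those without it, with log2 fold changes of -1.82 ± 0.14 for Bcl11a (adjusted p = 5.93e-06, edgeR) and -1.82 ± 0.22 for Mef2c (adjusted p = 0.000121, edgeR). Hoxa9, which passed the filter on low counts only through the groups without the transgene, had 26 and 25 counts in p21-/- cells. It had 8 and 3 counts in Lmo2Tg;p21-/- cells, and the log2 fold change was -2.07 ± 0.50 (adjusted p = 0.0095, edgeR). This call was lost, at a log2 fold change of -1.44 and an adjusted p of 0.0745, without Lmo2Tg;p21-/- replicate 2.

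**Figure D3:**
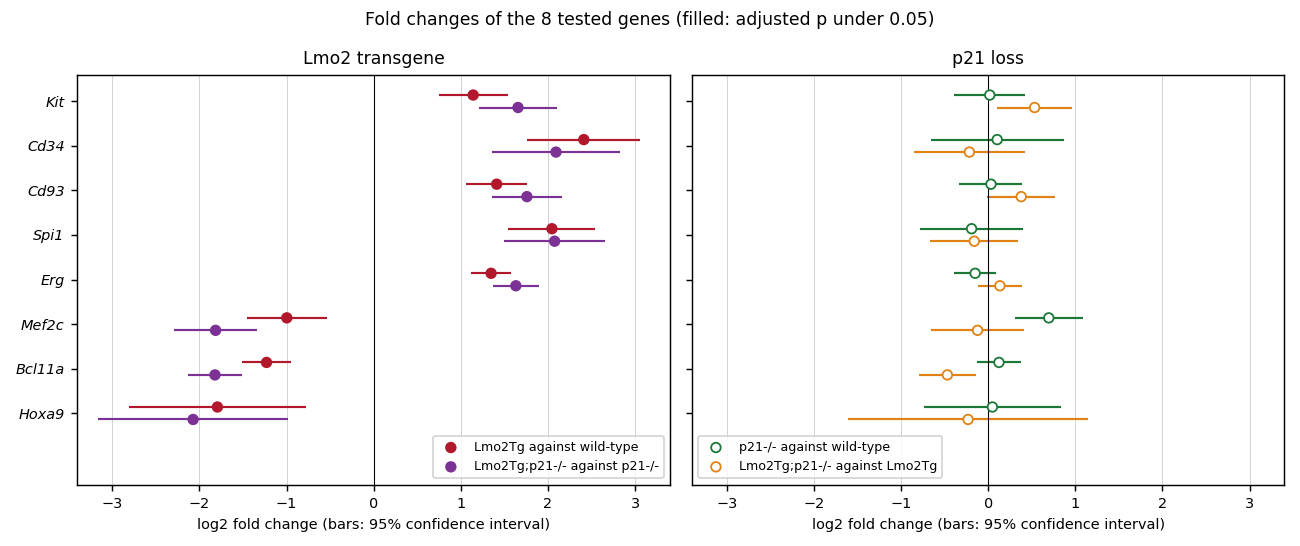
Log2 fold changes of the 8 genes tested, with 95% confidence intervals, for the Lmo2 transgene (left) and for loss of p21 (right), each on both backgrounds. Filled points passed an adjusted p under 0.05 in edgeR's test. All values on the left are filled and none on the right.

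The next question was whether loss of p21 changed these genes. None of the 8 genes passed the test in p21-/- against wild-type cells, where 0.110% of 11840 genes (13) did. At an unadjusted p under 0.05 the count was 1 of the 8 genes, against 3.30% of all genes, and DESeq2 and limma-voom called 0. The gene was Mef2c, at 7.17, 6.36 and 6.05 CPM in wild-type and 8.97 and 12.2 CPM in p21-/- cells. Its groups did not overlap, and its log2 fold change was 0.70 ± 0.18 (unadjusted p = 0.00252, adjusted p = 0.876, edgeR). For Kit the log2 fold change was 0.02, with a 95% confidence interval from -0.39 to 0.42. For Cd93 it was 0.03, between -0.33 and 0.39. The intervals of Cd34, Spi1 and Hoxa9 were wider, at -0.66 to 0.87, -0.78 to 0.40 and -0.74 to 0.83. Meis1 had 7 counts in each p21-/- library and at most 3 in each wild-type library, and was not tested.

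In Lmo2Tg;p21-/- against Lmo2Tg cells, 0 of the 8 genes passed in edgeR's test, against 6.94% of 11840 genes. At an unadjusted p under 0.05 the count was 2 of the 8 genes, against 25.5% of all genes. DESeq2 called 1 of the 8, against 8.88% of all genes, and limma-voom 0. Counts near these shares say nothing about the 8 genes. Kit was 199 and 129 CPM in Lmo2Tg and 271 and 204 CPM in Lmo2Tg;p21-/- cells, so that the groups just failed to overlap. Its log2 fold change was 0.53 ± 0.20 (adjusted p = 0.125, edgeR), and DESeq2 gave an adjusted p of 0.0464. The result depended on the Lmo2Tg library of column number 2, which held the higher Kit value. Without it, the log2 fold change of Kit was 0.87 (adjusted p = 0.0331, edgeR) and that of Cd93 was 0.75 (adjusted p = 0.0144, edgeR). Bcl11a was 7.40 and 7.66 CPM against 5.71 and 5.19 CPM, or -0.47 ± 0.15 on the log2 scale (adjusted p = 0.0856, edgeR). With both Lmo2Tg libraries, the difference in Cd93 was 0.38 ± 0.18 on the log2 scale (adjusted p = 0.203, edgeR). For Erg, Spi1, Cd34, Mef2c and Hoxa9 the log2 fold changes lay between -0.23 and 0.13, and the widest interval, that of Hoxa9, ran from -1.61 to 1.15.

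The difference between the effects of p21 loss with and without the transgene was tested directly, as an interaction. None of the 8 genes passed in edgeR's test, where 1.38% of 11840 genes did. At an unadjusted p under 0.05 the count was 2 of the 8 genes, against 18.1% of all genes, and DESeq2 and limma-voom called 0. The pair were Mef2c, with an interaction of -0.82 ± 0.30 on the log2 scale (adjusted p = 0.19), and Bcl11a, with -0.59 ± 0.19 (adjusted p = 0.141). For Kit the interaction was 0.51, with an interval from -0.08 to 1.11.

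Across the 9 genotype libraries, the genes fell into the same pair of blocks. Pearson's r of log2 CPM lay between 0.898 and 0.989 for the 10 pairs among Kit, Cd34, Cd93, Spi1 and Erg, and between 0.827 and 0.927 for the 3 pairs among Hoxa9, Mef2c and Bcl11a. Between the blocks it lay between -0.972 and -0.811. These values describe libraries that differ above all in carrying or lacking the transgene. With each group's mean subtracted, Kit still followed Cd93 (r = 0.908) and Erg (r = 0.843), but less so Spi1 (r = 0.351) and Cd34 (r = 0.331). Within groups, r was positive for 9 of the 10 pairs of the first block (-0.0169 to 0.908), for 1 of the 3 pairs of the second (-0.540 to 0.194) and for 10 of the 15 pairs between them (-0.402 to 0.781). Among 11034 other genes with at least 1 CPM on average, those with the pattern most like Kit over the 9 libraries were A430078G23Rik (r = 0.995), Dennd1c (r = 0.994), Tbc1d4 (r = 0.993), Ptpre (r = 0.993) and Fgd3 (r = 0.993). Ptpre, a receptor-type tyrosine phosphatase, had a mean of 56.9 CPM in wild-type, 54.8 in p21-/-, 120 in Lmo2Tg and 167 in Lmo2Tg;p21-/- cells. Tbc1d4, a Rab GTPase-activating protein, had means of 73.3, 75.6, 143 and 170 CPM in the same order.

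**Figure D4:**
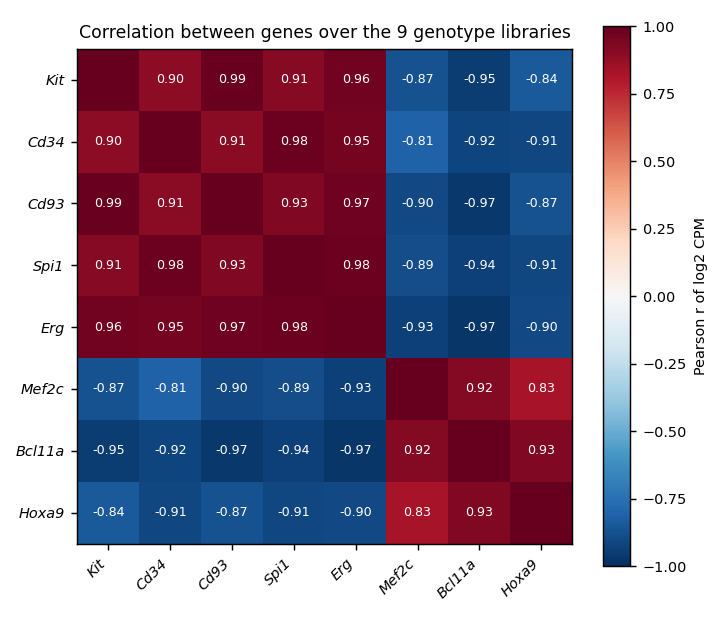
Pearson's r of log2 CPM between the 8 tested genes over the 9 genotype libraries (red positive, blue negative). Kit, Cd34, Cd93, Spi1 and Erg form one block and Mef2c, Bcl11a and Hoxa9 the other, with negative values between them.

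Other regulators of stem and progenitor cells moved in both directions in Lmo2Tg against wild-type cells. Of 35 listed genes, 29 were tested, and 13 rose and 6 fell, where 19.7% of all genes rose and 16.9% fell. Those that rose include Lmo2, the gene of the transgene, whose rise was fixed by the design. The number that fell was near that share. The median log2 fold change was 0.09, against -0.01 over all genes tested. Besides Lmo2, the steepest rises were those of Hhex, a homeodomain factor, from 3.22 ± 0.75 CPM (SD, n = 3) to 78.2 ± 11.8 CPM (n = 2), and of Lyl1, a partner of Lmo2 in its complex, from 3.75 ± 0.19 to 51.4 ± 21.5 CPM. Nfe2, a leucine zipper factor of megakaryocytes, rose from 26.3 ± 1.2 to 96.9 ± 33.8 CPM. The neighbours Hoxa7, Hoxa6 and Hoxa5 of Hoxa9 in the HoxA cluster fell with it. Hoxa7 went from 21.7 ± 1.7 to 4.33 ± 0.16 CPM, Hoxa6 from 1.92 ± 0.27 to 0.604 ± 0.017 CPM and Hoxa5 from 4.73 ± 0.36 to 1.95 ± 0.24 CPM. Hoxa6 passed the filter on low counts only with the libraries that lack the transgene, where it was high. Irf8, a factor of myeloid and dendritic cells, fell from 10.9 ± 0.2 to 4.28 ± 0.64 CPM. The adjusted p was at most 0.00463 for each of these genes in edgeR's test.

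Of 27 listed surface proteins and signalling genes of stem and progenitor cells, 17 were tested, and 9 rose and 4 fell, against the same 19.7% and 16.9% of all genes. The median log2 fold change was 0.36, against -0.01 over all genes tested. Flt3l, the ligand of the receptor that stayed at the floor, rose from 2.27 ± 0.17 to 22.05 ± 7.0 CPM. Slamf1, the stem cell marker CD150, rose from 6.32 ± 1.09 to 44.0 ± 13.2 CPM. Cd33 went from 0.394 ± 0.184 to 2.48 ± 0.26 CPM and Itga2b, an integrin of megakaryocytes, from 0.908 ± 0.223 to 2.03 ± 0.26 CPM. Cd33 passed the filter on low counts only with the libraries that carry the transgene, where it was high. The Itga2b call was lost without either Lmo2Tg library and without wild-type replicate 2 or 3. With 1 library left out, its log2 fold change lay between 0.97 and 1.32, against 1.155 with all libraries. Lyn, a Src-family kinase, fell from 14.97 ± 0.98 to 7.28 ± 1.41 CPM. Cd9, Eng and Ly6a fell too, with log2 fold changes of -0.90, -0.76 and -0.56. Ly6a encodes Sca-1, the antigen by which stem cells are usually sorted. Its call was lost without any 1 of 5 libraries, and without the Lmo2Tg library of column number 3 its log2 fold change was -0.33 (adjusted p = 0.283, edgeR). The Cd9 call was lost without the Lmo2Tg library of column number 2, though its log2 fold change was still -0.87.

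Genes of T-cell commitment and the DN3 stage changed beside them. All 28 listed genes were tested, and 6 rose and 12 fell, against 19.7% and 16.9% of all genes, so that the number that rose was near the share of all genes. Rag2, a subunit of the recombinase of T-cell receptor genes, fell from 72.3 ± 11.6 to 14.3 ± 0.009 CPM. Ptcra, the pre-T-cell receptor α chain, fell from 152 ± 29 to 40.9 ± 20.9 CPM, Spib from 46.0 ± 3.9 to 14.1 ± 0.7 CPM, and Cd3g from 1111 ± 111 to 377 ± 24 CPM. Those that rose included Hhex, which is also on the list above, Runx3, from 73.8 ± 2.7 to 168 ± 30 CPM, and the Notch targets Hes1 and Nrarp, with log2 fold changes of 1.21 and 1.30. Hes1 was 107 and 291 CPM in Lmo2Tg and between 74.6 and 100.8 CPM in wild-type cells, and without the Lmo2Tg library of column number 3 its log2 fold change was 0.31 and it no longer passed (adjusted p = 0.211, edgeR).

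Markers of other cell types were measured beside these results. The DN3 gate requires CD25 and leaves out cells with CD4, CD8 or CD44. How many cells of other types passed it is not known. Of the early thymic progenitor list, 13 of 15 genes were tested and 9 rose and 3 fell, but 10 of the 15 are the genes described here. Of its other 5 genes, Cd44, Lyl1 and Hhex rose and Cd24a did not pass the test. Lmo2 rose too, but it is the gene of the transgene, so its rise was fixed by the design. The mast cell and basophil list summed to between 70.2 and 100.5 CPM without the transgene and between 334 and 832 CPM with it. Nearly all of this was Cpa3, a carboxypeptidase also made by early progenitors, which, like Kit, was the higher of its group in the Lmo2Tg library of column number 2 and in Lmo2Tg;p21-/- replicate 1. Of the 4 genes of this list that were tested, 3 rose and 1 fell in Lmo2Tg against wild-type cells, with a median log2 fold change of 2.12. Besides Cpa3, these were Gata2, a factor of stem cells and mast cells, from 0.0605 to 0.123 CPM in wild-type to 1.11 and 0.547 CPM, and Hdc, which makes histamine, from 0.127 to 0.797 CPM to 2.52 and 0.889 CPM. The gene that fell was Mitf, a regulator of mast cells, from 1.39 to 1.84 CPM in wild-type to 0.444 and 0.342 CPM. Gata2 passed the filter on low counts only through libraries with the transgene, and Mitf only through those without it. In each case these were the groups where the gene was high. Fcer1a and Mcpt4, which define mast cells, had 0 counts in 8 of the 9 libraries each. The myeloid list summed to 20.3 and 21.1 CPM in Lmo2Tg and to between 15.8 and 22.3 CPM in wild-type cells. Of 7 myeloid genes tested, 2 rose and 1 fell. Lyz2, the most abundant gene of the list over the 9 libraries, fell in Lmo2Tg cells (5.77 and 6.15 CPM against 14.6 to 16.6 CPM), while Mpo rose from at most 0.382 CPM to 7.47 and 8.14 CPM. Mpo passed the filter on low counts only with the libraries that carry the transgene, where it was high. Itgam, the integrin chain CD11b, rose from 0.907 to 2.02 CPM in wild-type to 5.399 and 4.92 CPM. The part of these transcripts in the rise of Kit and Spi1 was not tested.

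The remaining lists gave no uniform direction in Lmo2Tg against wild-type cells. The B-lineage sum was between 63.4 and 68.6 CPM in wild-type and 30.8 and 32.8 CPM in Lmo2Tg cells, led by Cd79b. Of 6 B-lineage genes tested, 0 rose and 2 fell, beside the fall of Bcl11a and Mef2c. Of 6 dendritic cell genes tested, 1 rose and 3 fell, among them Ccr9, the most abundant in wild-type cells, from at least 143 CPM to at most 13.7 CPM. In Lmo2Tg cells Bst2 led that list, at 81.7 and 79.7 CPM. Of 7 erythroid and megakaryocyte genes 2 rose and 0 fell, with Hbb-bs at most 5.33 CPM in these groups. Of 6 natural killer and innate lymphoid genes 3 rose and 1 fell, of 10 double-positive and mature T-cell genes 6 rose and 2 fell, and of 4 stroma and endothelium genes 1 rose and 2 fell. The most abundant genes of the natural killer and stroma lists were Gzma and Pecam1. In wild-type against Lmo2Tg libraries, the summed levels were 259 to 274 against 106 and 108 CPM for the dendritic list, 5.20 to 9.22 against 16.6 and 17.9 CPM for the erythroid list, and 250 to 268 against 182 and 229 CPM for the natural killer list. They were 975 to 1044 against 1400 and 1410 CPM for the double-positive and mature T-cell list and 200 to 204 against 217 and 236 CPM for the stroma list. In the Lmo2Tg libraries, 1 and 3 of the 12 B-lineage genes, 3 and 3 of the 13 myeloid, 3 and 2 of the 12 dendritic, 6 and 6 of the 10 mast cell, 1 and 2 of the 12 erythroid, 1 and 2 of the 11 natural killer and 5 and 4 of the 10 stroma genes had 0 counts. The part of such cells in the results was not tested.

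The remaining question was whether label-retaining GFPhi cells differed from GFPlo cells in these genes. GFPhi replicate 3 stood apart from the other 2 GFPhi libraries on the second principal component, at 52.2 against -32.4 and -34.9, and the fold changes of the 7 genes tested are given with and without it. Of the 7 genes tested, only Kit passed, and it was lower in GFPhi cells. Of all 11581 genes tested, 14.9% passed. Without GFPhi replicate 3, Kit and Cd93 were lower and Mef2c was higher, 3 of the 7 genes, against 41.3% of 11745 genes. Mef2c passed the filter on low counts only through the GFPhi libraries, the group where it was high. Counts near these shares say nothing about the 7 genes as a group. The median log2 fold change was -0.34 over the 7 genes and 0.02 over all genes with every library, and -0.17 and 0.008 without GFPhi replicate 3. Hoxa9, Flt3 and Meis1 did not pass the filter on low counts.

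Kit was 349, 382 and 340 CPM in GFPlo and 195, 198 and 141 CPM in GFPhi libraries, 357 ± 22 against 178 ± 32 CPM (SD, n = 3 each). All GFPhi libraries lay far below all GFPlo libraries. The log2 fold change was -1.003 ± 0.141 (adjusted p = 0.0101, edgeR), and -0.85 ± 0.06 without GFPhi replicate 3 (adjusted p = 0.000207). Without GFPlo replicate 2 it was -0.95 and no longer passed (adjusted p = 0.0626). Cd93 was 471, 483 and 469 CPM in GFPlo and 259, 273 and 37.1 CPM in GFPhi libraries. The GFPhi libraries were all lower, but replicate 3 held only a small part of the level of the others. The log2 fold change over all libraries was -1.32 ± 0.67 (adjusted p = 0.221), and -0.83 ± 0.05 without GFPhi replicate 3 (adjusted p = 0.000118). Cd93 and Spi1 lie on chromosome 2, whose 923 tested genes had a median log2 fold change of -0.18 in this comparison.

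Erg was 148, 127 and 113 CPM in GFPlo and 163, 150 and 189 CPM in GFPhi libraries. The lowest GFPhi library lay just above the highest GFPlo library, and the log2 fold change was 0.37 ± 0.13 (adjusted p = 0.104, edgeR). In DESeq2 the adjusted p was 0.0467. Without GFPhi replicate 3 it was 0.28 ± 0.11 (adjusted p = 0.0787, edgeR). Erg thus did not follow Kit and Cd93 in this experiment. Lmo2 was 35.8, 37.6 and 42.3 CPM in GFPlo and 53.8, 29.5 and 285 CPM in GFPhi libraries, with the high value in GFPhi replicate 3. Its log2 fold change was 1.67 ± 0.82 (adjusted p = 0.213, edgeR), and 0.12 ± 0.23 without that library (adjusted p = 0.71). Cdkn1a was 12.0, 11.1 and 8.08 CPM in GFPlo and 35.8, 29.9 and 6.56 CPM in GFPhi libraries, so that here GFPhi replicate 3 lay below GFPlo and the other 2 GFPhi libraries above. Without it, the log2 fold change of Cdkn1a was 1.67 ± 0.17 (adjusted p = 0.000624, edgeR), and with it 1.21 ± 0.59 (adjusted p = 0.207).

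**Figure D5:**
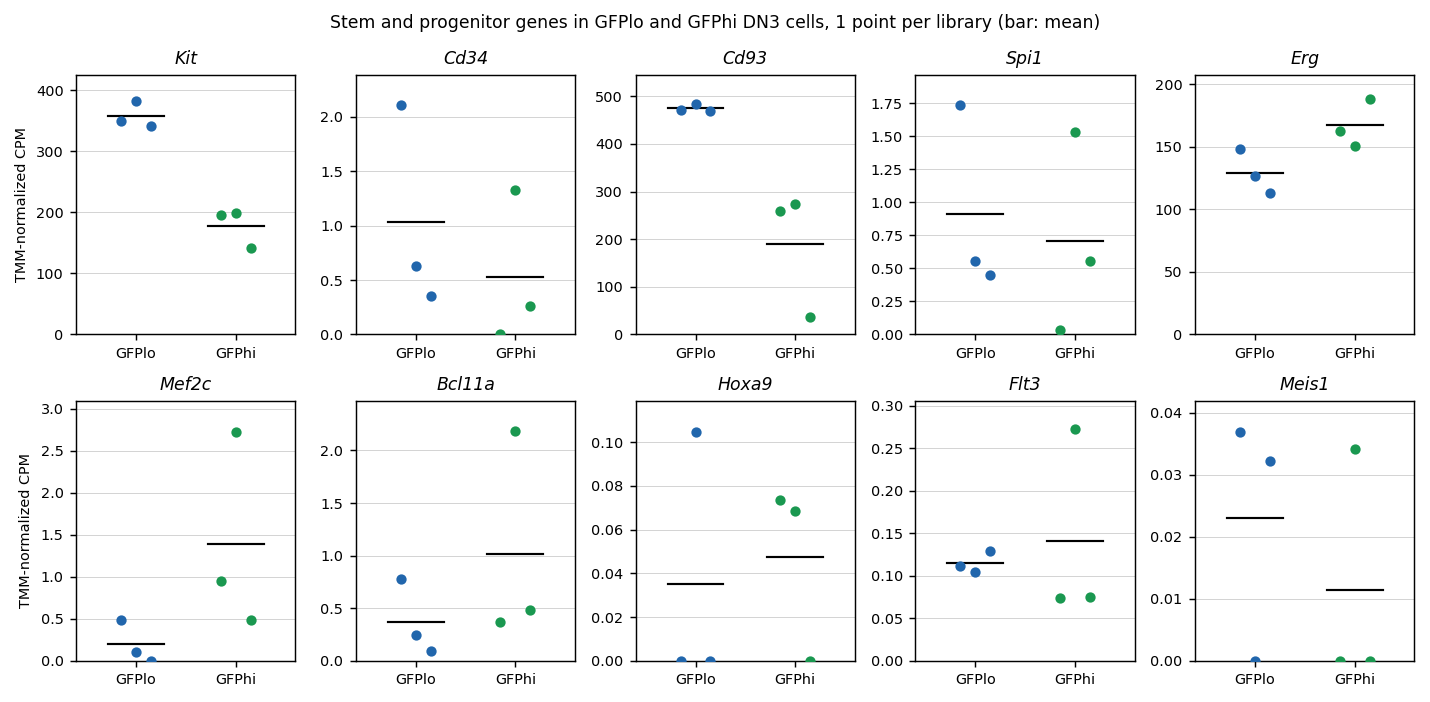
Level of each of the 10 genes in TMM-normalized CPM (linear axes starting at 0, with a scale of their own) in GFPlo (blue) and GFPhi (green) DN3 cells, with 1 point per library and a bar at the group mean. Kit and Cd93 were lower in all GFPhi libraries, and the other genes except Erg stayed under 3 CPM.

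The other transcription factors were rare in these libraries. Mef2c was 0.481, 0.105 and 0 CPM in GFPlo and 0.955, 2.73 and 0.484 CPM in GFPhi libraries, at 2.85 ± 1.12 on the log2 scale (adjusted p = 0.137, edgeR). The highest GFPlo and the lowest GFPhi value nearly met. Without GFPhi replicate 3 the log2 fold change of Mef2c was 3.28 ± 0.90 (adjusted p = 0.0256, edgeR). Mef2c had 13, 3 and 0 counts in GFPlo libraries and was tested only through the GFPhi libraries, where it was high. Bcl11a was 0.777, 0.245 and 0.0966 CPM in GFPlo and 0.367, 2.18 and 0.484 CPM in GFPhi libraries, which overlapped, at 1.46 ± 0.96 on the log2 scale (adjusted p = 0.335, edgeR). Spi1 lay between 0.451 and 1.74 CPM in GFPlo and between 0.0367 and 1.54 CPM in GFPhi libraries, and Cd34 between 0.354 and 2.11 CPM and between 0 and 1.33 CPM. Both overlapped. Their log2 fold changes were -0.34 ± 1.02 for Spi1 and -0.92 ± 1.21 for Cd34, with intervals from -2.84 to 2.15 for Spi1 and from -3.88 to 2.03 for Cd34. Without GFPhi replicate 3, the log2 fold changes were 1.82 ± 0.90 for Bcl11a, -0.17 ± 1.02 for Spi1 and -0.57 ± 1.15 for Cd34, and none of these 3 genes passed (adjusted p of at least 0.148, edgeR). Hoxa9 had at most 3 counts, Meis1 at most 1 and Flt3 at most 8 counts in any of these libraries.

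Some B-cell transcripts rose in GFPhi cells and others did not pass the test. In GFPhi replicates 1, 2 and 3, Pax5 was 1.25, 5.94 and 1.53 CPM, against at most 0.0966 CPM in GFPlo libraries. Ms4a1, which encodes CD20, was 1.87, 7.58 and 2.23 CPM, against at most 0.0322 CPM. GFPhi replicate 2, with the highest values of both, was also the GFPhi library with the highest Mef2c, Bcl11a, Spi1 and Cd34. The same 4 genes were also highest within their group in GFPlo replicate 1, where Pax5 and Ms4a1 had 0 counts, and its Spi1 (1.74 CPM) and Cd34 (2.11 CPM) lay above those of GFPhi replicate 2 (1.54 and 1.33 CPM). The B-lineage list summed to 51.4, 86.9 and 65.8 CPM in GFPhi and to between 44.2 and 48.8 CPM in GFPlo libraries. Its most abundant gene, Cd79b, lay between 19.4 and 27.6 CPM in all 6. Of 9 B-lineage genes tested, 4 rose and 0 fell, where 5.37% of all genes rose. Blnk, a B-cell adaptor, was 2.005 ± 0.474 CPM in GFPlo and 1.67 ± 0.60 CPM in GFPhi cells (SD, n = 3 each) and did not pass. Without GFPhi replicate 3, 6 of 10 rose, where 19.5% of all genes did. Pax5, Ms4a1, Cd22 and Cd79a had at most 0.2445 CPM in GFPlo libraries. With and without GFPhi replicate 3, they passed the filter on low counts only through GFPhi libraries, where they were high. The B-lineage counts therefore cannot be weighed against the shares of all genes. How many B cells passed the DN3 gate is not known, and their part in the values of Mef2c and Bcl11a was not tested. The mast cell list, again nearly all Cpa3, summed to 936, 780 and 794 CPM in GFPlo and 672, 623 and 505 CPM in GFPhi libraries, and 0 of its 2 tested genes passed, with 6, 6 and 7 of its 10 genes at 0 counts in GFPlo libraries.

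The other lists were also compared between GFPhi and GFPlo cells. Among stem and progenitor regulators, 2 of 21 tested rose and 1 fell, where 5.37% of all genes rose and 9.49% fell. Runx2 rose from 74.5 ± 7.6 to 96.3 ± 5.2 CPM (SD, n = 3 each), and Nrip1 fell from 327 ± 13 to 272 ± 12 CPM. Hoxb4 rose from 0.245 ± 0.116 to 2.12 ± 1.78 CPM, with a log2 fold change of 3.10 ± 0.73. It passed the filter on low counts only with the GFPhi libraries, the group where it was high. Of 15 surface proteins and signalling genes, 0 rose and 3 fell. These were Cd9, from 9.50 ± 2.51 to 0.497 ± 0.233 CPM, Ly6a, from 26.5 ± 1.3 to 12.7 ± 3.9 CPM, and Slamf1, from 48.5 ± 2.3 to 37.5 ± 3.1 CPM. Of the 28 T-cell genes, 1 rose, Il2ra, from 1659 ± 99 to 2657 ± 500 CPM, and 0 fell. Of the 7 genes named here, 6 lost the call without 1 or another library, with an adjusted p of up to 0.169 in edgeR's test, and Cd9 did not. Their fold changes kept their direction. With 1 library left out they ranged on the log2 scale from 0.29 to 0.44 for Runx2, 2.16 to 3.50 for Hoxb4, -0.29 to -0.23 for Nrip1, -1.33 to -0.91 for Ly6a, -0.42 to -0.31 for Slamf1 and 0.52 to 0.78 for Il2ra. Without GFPhi replicate 3, 6 regulators rose and 6 fell of 23 tested, 4 surface and signalling genes rose and 4 fell of 16, and 6 T-cell genes rose and 2 fell, where 19.5% of all genes rose and 21.7% fell. In the remaining lists of other cell types, 0 of 2 myeloid, 2 of 5 dendritic, 0 of 8 erythroid, 1 of 6 natural killer, 1 of 10 double-positive or mature T-cell and 1 of 3 stroma genes tested were higher, and 0 lower. The dendritic genes were Cd74 and H2-Aa, which serve antigen presentation in dendritic and B cells. Cd74 was 13.7, 57.4 and 16.35 CPM in GFPhi replicates 1, 2 and 3 and at most 0.419 CPM in GFPlo libraries, and H2-Aa was 4.52, 19.35 and 5.997 CPM against at most 0.518 CPM. Like Pax5 and Ms4a1, both were highest in GFPhi replicate 2, which also had the highest Mef2c. Both passed the filter on low counts only with the GFPhi libraries, where they were high. The early progenitor list had 1 gene higher, Cd24a, and 1 lower, Kit itself. These counts also changed without GFPhi replicate 3. The genes higher and lower were then 1 and 1 of 4 myeloid, 2 and 2 of 6 dendritic, 1 and 0 of 8 erythroid, 3 and 0 of 6 natural killer, 6 and 2 of 10 double-positive or mature T-cell, 2 and 0 of 3 stroma, 4 and 3 of 12 early progenitor and 0 and 1 of 3 mast cell genes tested, the last being Cpa3. The natural killer list summed to between 251 and 301 CPM in GFPlo and to 567, 319 and 752 CPM in GFPhi libraries. Gzma led it in GFPlo, at 121 to 156 CPM, while Gzmb ranged most in GFPhi, at 238, 18.7 and 443 CPM. The myeloid list summed to between 10.4 and 11.5 CPM and between 7.68 and 9.61 CPM.

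Both tables held DN3 cells with the transgene, and their values stand side by side without a test, since the tables were made and scaled apart. Mean Kit was 164 CPM in Lmo2Tg, 357 CPM in GFPlo and 178 CPM in GFPhi cells. Mean Erg was 126, 129 and 167 CPM, and mean Cd93 227, 474 and 190 CPM in the same order. For Cd34, Spi1, Bcl11a, Mef2c and Hoxa9 the mean was lower in both GFP groups than in Lmo2Tg cells. In the same order, mean Cd34 was 12.7, 1.03 and 0.531 CPM and mean Spi1 11.9, 0.916 and 0.710 CPM. Mean Bcl11a was 7.53, 0.373 and 1.01 CPM and mean Mef2c 3.26, 0.195 and 1.39 CPM. Mean Hoxa9 was 0.430, 0.035 and 0.047 CPM. The mice and the treatment differed together, the counting may have differed as well, and their parts cannot be told apart.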

How the data were processed

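Poly-A RNA of sorted DN3 thymocytes was sequenced. For each experiment the authors deposited 1 table of integer counts over protein-coding genes, without normalization. The submitters' processing notes name STAR 2.4.2a, featureCounts, limma and mm10, without their roles. Sample labels and column names gave the groups. Of 16 samples, 15 libraries had a usable column. The columns of Lmo2Tg name the group only, 1 further column could not be assigned to a sample and was not used here, and p21-/- replicate 3 was not analysed here. The study names 3 cohorts for GFPhi and GFPlo and pools of mice for its RNA, but no source ties a replicate number or a library to either, so p-values measure the spread between these libraries.

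Counts were scaled by TMM and tested in edgeR 4.0.16 (R 4.3.3) with the quasi-likelihood test, after filterByExpr (minimum count 10, minimum total 15). GFPhi and GFPlo were fitted together, and all 9 genotype libraries in one fit that shared an estimate of the spread. P-values were adjusted by Benjamini-Hochberg over all genes tested. Rose and fell mean an adjusted p under 0.05. A fold change above 2 at an FDR of 0.01 (GFP) or 0.05 (genotypes) was an alternative. The study used the former for GFP, and both FDR limits appear in it for the genotypes. Others were RLE factors, DESeq2 1.42.0, limma-voom 3.58.1, no filter, TMM without chromosomes 2, 15 and 17, the groups compared alone, a replicate block and each library left out. Likeness used log2 CPM with a prior count of 2. The fits were checked on simulated data. Of 22114 identifiers, 98.2% matched GENCODE M21, which gave exon lengths. Named genes of each list are up to 4 per direction, by size of fold change, of those that passed with at least 1 CPM in the higher group. The marker genes named beside the most abundant of each list, Il2ra, Cd4, Ptpre and Tbc1d4 were picked after their values were seen. The 10 genes and the lists were chosen with earlier results of these data known. Intervals cover counting and replicate error as modelled by edgeR, at 95%.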

Additional observations from a re-analysis of the deposited data

How the results depend on the processing

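Under every alternative run, Cd34, Spi1, Cd93, Erg and Kit stayed higher and Bcl11a and Mef2c lower with the transgene, past the threshold on both backgrounds, except that Mef2c missed the 2-fold rule in Lmo2Tg against wild-type (a fall of 1.997-fold). Hoxa9 stayed lower, but was not called without 1 library in each comparison (log2 fold change -1.52 and -1.44). Of the alternative values of the log2 fold changes, 607 kept their direction and call, 7 became called, 3 lost the call and 26 changed sign, each of these for a gene that was not called. The cause of these changes was not tested.

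For GFPhi against GFPlo, the count of the 10 genes called was 1, 2 in DESeq2, 0 with a 2-fold change at an FDR of 0.01, and from 0 to 3 with 1 library left out. Genes called overall were 1721, 2912 in DESeq2, 261 with the 2-fold rule, and from 273 to 4848 with 1 library left out, the last without GFPhi replicate 3. Leaving out 1 library moved Cd34 between -2.94 and 0.13 and Spi1 between -1.60 and 0.50 on the log2 scale.

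The replicate number as a block gave 496 genes for GFPhi against GFPlo, with Kit at -1.02 (adjusted p = 0.0396, edgeR) still called. The deviations of same-numbered GFPhi and GFPlo libraries correlated at 0.0703, -0.0793 and 0.0989, and not every library correlated best with its own number. The study names 3 cohorts for these libraries, but no source says that a number marks a cohort, so the pairing could not be established. For p21-/- against wild-type, the block over those libraries turned Kit to -0.088, Cd34 to -0.19 and Cd93 to -0.026. The Lmo2Tg columns carry no replicate number that names a sample.

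With the 2-fold rule, genes called were 1420 for Lmo2Tg against wild-type (4329 without a fold minimum), 222 for Lmo2Tg;p21-/- against Lmo2Tg (822), 1230 for Lmo2Tg;p21-/- against p21-/- (3639) and 95 for the interaction (163). In Lmo2Tg;p21-/- against Lmo2Tg, 1 of the 10 genes was called in DESeq2 and 1 without a filter on low counts, in each case Kit, and from 0 to 2 with 1 library left out, 2 without the Lmo2Tg library of column number 2. Fitting only those groups gave 404 genes. For p21-/- against wild-type, DESeq2 called 20 and no filter 21 genes, against 13. For the interaction, DESeq2 called 457 and no filter 520, and limma-voom turned Spi1 to -0.013.

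With 1 library left out, genes called ranged from 2815 to 4248 for Lmo2Tg against wild-type, 60 to 1128 for Lmo2Tg;p21-/- against Lmo2Tg, 8 to 18 for p21-/- against wild-type, 1914 to 4251 for Lmo2Tg;p21-/- against p21-/- and 0 to 449 for the interaction. Where a group was left with 1 library, it was assumed to vary like the others. Log2 fold changes then ranged for Lmo2Tg;p21-/- against Lmo2Tg from -0.025 to 0.26 for Erg and -1.22 to 0.40 for Hoxa9. For p21-/- against wild-type they ranged from -0.092 to 0.12 for Kit, -0.35 to 0.45 for Cd34, -0.038 to 0.094 for Cd93 and -0.057 to 0.27 for Hoxa9. For the interaction they ranged from -0.67 to 0.13 for Cd34, -0.15 to 0.24 for Spi1 and -1.26 to 0.35 for Hoxa9. Levels in plain CPM differed from TMM levels by less than 1 SD in 59 of the group means and by more in 1, Bcl11a in Lmo2Tg (7.26 CPM). Flt3 and Meis1, and Hoxa9 in the GFP libraries, were limited by depth.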
